A study of Mus musculus with 8 samples.

Results

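The genes described are those of the extracellular matrix and of its integrin receptors on the Affymetrix 430B array: collagens, laminins, fibulins, fibrillins, microfibril proteins, tenascins, lysyl oxidases, ADAMTS and matrix metalloproteases and integrin chains. They were taken by symbol, from probe sets to which the platform annotation gives exactly 1 gene symbol, by a rule on symbols that uses no signal. The rule found 86 probe sets of 22511, for 59 genes of 9607. A gene with several probe sets has them lettered A, B and C from the brightest to the dimmest. The names of Mfap3, Mfap3l and Itgb3bp also match the rule, although Mfap3 and Mfap3l encode membrane glycoproteins and Itgb3bp a protein of the centromere. These 6 probe sets form a role of their own. They are included in all totals, medians, sums and figures of the members, except where counts without them are given.

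The study compared brains of mice that were all heterozygous for the translocation T9H (T9H/+) and that had inherited duplicated chromosome segments from one parent. Paternal-7 animals carried a paternal duplication (patdup) of proximal chromosome 7 with a maternal one (matdup) of proximal chromosome 15, and maternal-7 animals the reverse. Since both genotypes carry T9H, an effect of the translocation itself cannot be seen here. Each of the 2 genotypes was measured on 1 array in each of 4 contexts, namely neonatal cortex, neonatal cerebellum, whole brain at 15.5 days post coitum (dpc) and whole brain at 13.5 dpc. There were 8 arrays and no replicate within a genotype and context. The sources used here do not give the breakpoints, the age of the neonates in days, or whether an array held 1 animal or a pool.

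The extracellular matrix is the network of secreted proteins and sugars between cells. Collagens and elastic microfibrils give it form, laminins and type IV collagen build the basement membranes of vessels and of the brain surface, ADAMTS and matrix metalloproteases trim it, and integrins, dimers of an alpha and a beta chain, tie cells to it. In the brain, fibrous matrix is made mainly by meninges and vessels, while the matrix among neurons is poor in fibrillar collagen and rich in chondroitin sulphate proteoglycans, hyaluronan and tenascin-R.

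Signals are linear MAS5 intensities, and a signal below the median of its array (229.8 to 285.7) is treated as not distinguishable from background. A probe set was tested where it exceeded the array median on at least 2 arrays. A probe set dim throughout 1 group could pass this filter only through the group where it was high, so its call is not separate support. Of the 86 members, 46 passed (35 genes), 5 exceeded the median on 1 array only and 35 on none. Differences are log2 differences of signal + 58.5 from a limma fit with terms for context and genotype, ± is the standard error, and the adjusted p is Benjamini-Hochberg over all 13221 probe sets tested, with a threshold of 0.05. Since separate animals are not stated, p-values here reflect the scatter among 8 arrays, which may be technical. In whole tissue, fewer cells of a type and less RNA per cell cannot be told apart. The 2 arrays of a context correlated across probe sets at 0.949 and 0.953 in the neonatal tissues and at 0.891 and 0.906 in the embryonic ones. Snhg14, a noncoding RNA made from the paternal chromosome 7, read 667.3 to 2372 on the paternal-7 arrays and 0.2623 to 33.93 on the maternal-7 arrays (its brightest probe set).

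With the settings above, all called differences among these genes lay between neonatal tissue and embryonic brain or between the embryonic ages. The neonatal arrays hold dissected cortex or cerebellum and the embryonic ones whole brain, so age and dissected region cannot be told apart in the neonatal comparison. Promoters are shown for 3 genes with lower signals in neonatal tissue and at 15.5 than at 13.5 dpc (Itga8, Col8a2 and Adamts12). They are also shown for 2 genes that were higher in neonatal tissue (Tnr and Itgb8). Each of these genes had 1 window in the table used. The falls shown are not the largest among the members, since Fbn2 fell more in both comparisons and is not shown. The sequences are from RefSeq, GRCm38.p6, 5′ to 3′ on the gene's strand, from 250 bases before to 50 after the annotated start. Capitals mark GC boxes (GGGCGG), E boxes (CANNTG), AP-1 sites (TGANTCA) and TATA boxes (TATAAA), searched on both strands with overlaps counted.
Itga8 promoter, chr2:12301895-12302194, minus strand: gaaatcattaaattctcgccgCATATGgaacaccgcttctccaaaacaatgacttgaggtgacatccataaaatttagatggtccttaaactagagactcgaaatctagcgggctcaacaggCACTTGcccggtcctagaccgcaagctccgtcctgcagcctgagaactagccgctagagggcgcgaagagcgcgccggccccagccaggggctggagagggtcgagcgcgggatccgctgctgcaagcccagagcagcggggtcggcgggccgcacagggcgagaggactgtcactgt
Col8a2 promoter, chr4:126286544-126286843, plus strand: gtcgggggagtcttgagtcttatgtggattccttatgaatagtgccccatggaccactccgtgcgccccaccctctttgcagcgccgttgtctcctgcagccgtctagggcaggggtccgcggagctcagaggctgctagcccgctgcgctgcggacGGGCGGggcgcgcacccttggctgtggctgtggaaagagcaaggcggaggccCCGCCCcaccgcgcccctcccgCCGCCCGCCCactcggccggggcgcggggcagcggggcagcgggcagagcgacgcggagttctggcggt
Adamts12 promoter, chr15:11064523-11064822, plus strand: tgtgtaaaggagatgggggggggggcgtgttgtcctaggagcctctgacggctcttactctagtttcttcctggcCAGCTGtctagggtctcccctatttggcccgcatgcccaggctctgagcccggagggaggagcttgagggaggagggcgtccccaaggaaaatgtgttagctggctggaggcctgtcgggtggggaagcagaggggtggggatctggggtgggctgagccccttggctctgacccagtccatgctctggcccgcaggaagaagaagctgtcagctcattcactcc
Tnr promoter, chr1:159523519-159523818, plus strand: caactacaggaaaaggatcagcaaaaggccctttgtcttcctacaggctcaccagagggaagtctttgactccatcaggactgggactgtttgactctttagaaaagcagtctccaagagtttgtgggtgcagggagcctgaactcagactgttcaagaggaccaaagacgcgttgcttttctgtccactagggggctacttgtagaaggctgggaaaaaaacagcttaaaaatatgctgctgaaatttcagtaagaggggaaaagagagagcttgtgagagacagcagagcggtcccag
Itgb8 promoter, chr12:119238227-119238526, minus strand: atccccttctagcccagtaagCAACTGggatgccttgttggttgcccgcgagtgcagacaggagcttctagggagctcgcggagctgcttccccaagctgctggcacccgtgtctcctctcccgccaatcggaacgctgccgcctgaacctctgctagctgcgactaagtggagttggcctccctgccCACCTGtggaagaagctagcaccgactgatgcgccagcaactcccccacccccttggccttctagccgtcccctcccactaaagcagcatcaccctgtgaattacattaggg

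The Itga8 and Itgb8 windows each held 2 E boxes and the Adamts12 window held 1. The Col8a2 window held 4 GC boxes, of which 1 pair overlapped, and no E box. None of the searched motifs was found in the Tnr window, whose GC content was 48.0%, against 71.7% in that of Col8a2. Over the 31 windows found for 27 tested member genes, 18 held a GC box (58.1%), against 35.7% of all 32851 windows in the table, and 21 held an E box (67.7%), against 72.3%. An AP-1 site was found in 0 of the 31 windows, against 7.81% of all windows, and a TATA box in 2 (6.45%), against 13.6%. The median GC content was 60.7% in the members' windows and 52.7% in all. The table's windows include genes that were not tested or not on the array, and the windows of all tested genes were not compared. These shares therefore do not set the members apart from other tested genes. The motifs are matches of letters in a short window, not known sites.

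Neonatal tissue had less signal from 19 of the 46 tested probe sets (17 genes) than embryonic brain and more from 5 (5 genes). These shares, 41.3% lower and 10.9% higher, stand against 16.4% lower and 14.3% higher among all probe sets tested. The median difference of the members was −0.39, against −0.16 over all tested probe sets, and 33 of the 46 members were below 0. The summed signal of the tested members was 27810 to 30723 on the neonatal arrays, against 32495 and 32768 at 15.5 dpc and 53110 and 54273 at 13.5 dpc. The sum thus set the 13.5 dpc arrays apart, and 27 of 46 members had their highest mean at 13.5 dpc, against 41.4% of all tested probe sets. All neonatal arrays were below all embryonic arrays in 12 members, against 16.5% of tested probe sets, and above them in 3, against 11.8%.

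The neonatal difference rests largely on 13.5 dpc. Without the 13.5 dpc arrays, 4 members were called, with Mfap2, Itga8 and Itgb2l A lower and Tnr higher. That is 8.7% of the members, against 8.35% of all tested probe sets, and the members' median was −0.10, against −0.11 over all probe sets. The scaling of the arrays also bears on it, because the embryonic arrays had the higher medians. Centring each array on its median moved the median of all probe sets to 0.02 and that of the members to −0.22, and called 12 members lower and 8 higher, with 1058 probe sets lower and 2398 higher in all. The lower calls that it ended were those of Adamts16 A, Adamts20, Adamts5 A, Adamtsl1 A and B, Col22a1 and Itga1 A, and it added higher calls for Col25a1, Col6a4 B and Mfap3l C. The deposited scaling called 2168 probe sets lower and 1887 higher. With any 1 array left out, Mfap2, Fbn2, Itga8, Col8a2, Col12a1 A, Adamts12 A, Col27a1 A, Col23a1 A and B and Itgb2l A kept their lower calls, and Tnr, Itgb8 and Mfap3l A their higher ones.

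**Figure D1:**
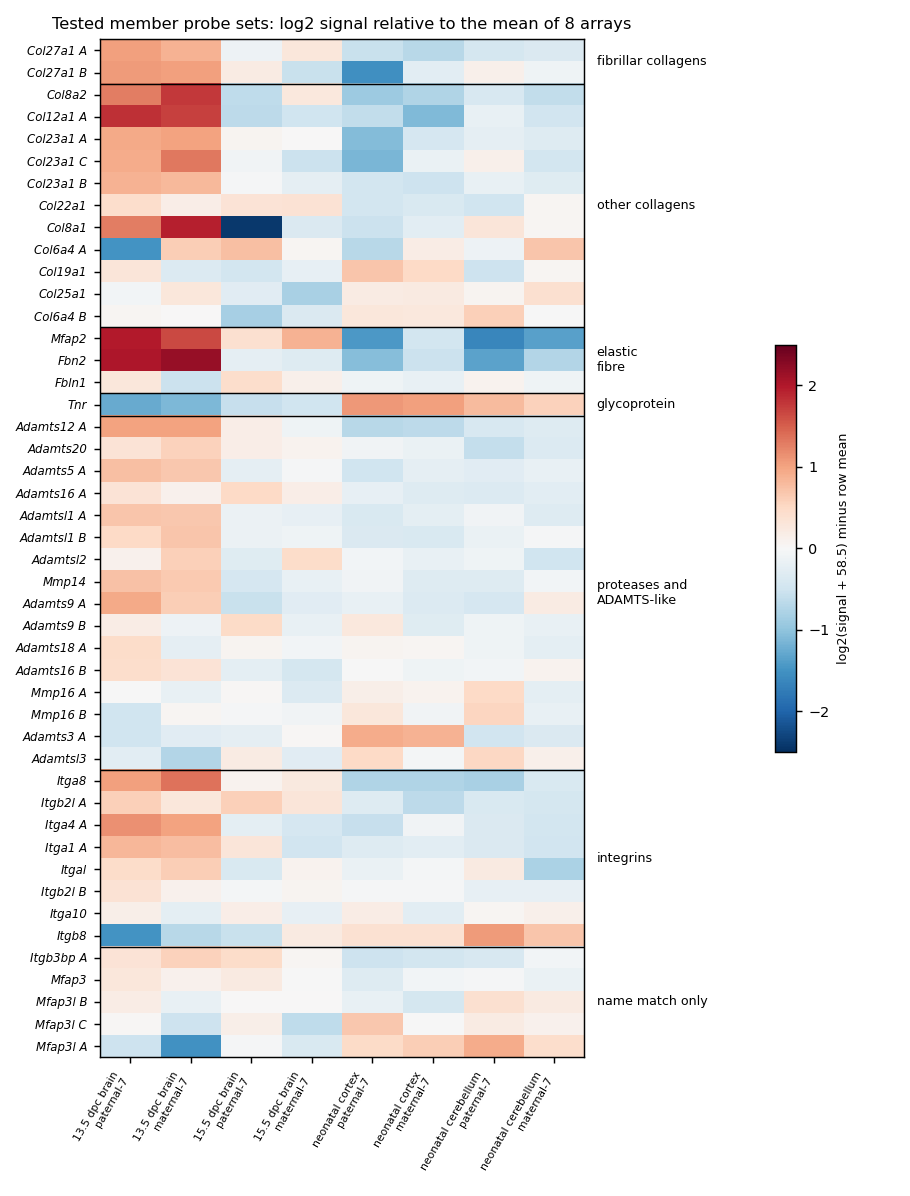
Log2 of (signal + 58.5) of the 46 tested probe sets on each of 8 arrays (columns, by stage and genotype), relative to the mean of each row, grouped by role. Red in the 2 columns at the left is signal above the row's mean at 13.5 dpc, which 27 of the 46 rows have as their highest context.

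Among the elastic fibre genes, Mfap2 and Fbn2, both of microfibrils, had the largest neonatal falls of all members. Mfap2 (probe set 1447833_x_at, chromosome 4) encodes microfibril-associated glycoprotein 1, which binds fibrillin. It read 490.3 and 1022 in neonatal cortex and 420.3 and 521 in neonatal cerebellum, against 1886 and 2639 at 15.5 dpc and 5790.4 and 4569 at 13.5 dpc. Every neonatal signal lay below every embryonic one, with means of 614 ± 276 and 3721 ± 1783 (SD, n = 4 arrays each). The difference was −2.44 ± 0.22 (limma adjusted p = 0.00104), and −1.85 without the 13.5 dpc arrays (limma adjusted p = 0.0189). The _x_ in the name of this probe set marks probes that may also bind other transcripts.

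Fbn2 (1454830_at, chromosome 18) encodes fibrillin-2, the fibrillin of developing microfibrils. It read 395 and 589 in cortex and 314 and 514 in cerebellum, against 754 and 702 at 15.5 dpc and 3799.6 and 4214 at 13.5 dpc. Most of the step lay between the 2 embryonic ages: neonatal minus embryonic was −1.83 ± 0.16 (limma adjusted p = 0.00104) and 15.5 minus 13.5 dpc −2.37 ± 0.23 (limma adjusted p = 0.00923). Without the 13.5 dpc arrays the neonatal difference was −0.65 (limma adjusted p = 0.105). Fbln1, which encodes fibulin-1, a glycoprotein of basement membranes and elastic fibres, read 701 to 852 on the neonatal arrays and 534 to 1113 on the embryonic ones, and the groups overlapped (−0.15 ± 0.16). Fbln2 and Loxl1 were never above the array median.

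The rule found only 4 probe sets of fibrillar collagens, for 3 genes, and the other fibrillar collagen genes were not measured. Of the 3, Col27a1 alone was bright enough to be tested. Col27a1 is a collagen of thin fibrils, best known from cartilage. Its probe set A (1453191_at, chromosome 4) read 1139 and 1032 in cortex and 1241 and 1308 in cerebellum, against 1552 and 2079.6 at 15.5 dpc and 3519.9 and 3142 at 13.5 dpc. The neonatal and embryonic signals did not overlap, and the difference was −1.02 ± 0.15 (limma adjusted p = 0.00425). Probe set B pointed the same way with a wider error, −0.87 ± 0.31 (limma adjusted p = 0.0724). Its cortex arrays read 201 with paternal-7 and 566 with maternal-7. Col1a2, a chain of type I collagen, was under the array median on all 8 arrays, at 3.39 to 11.4 in neonatal tissue, against 23.9 and 53.8 at 15.5 dpc and 111 and 159 at 13.5 dpc.

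Of the other collagens, 5 of 11 tested probe sets (45.5%) were lower in neonatal tissue and 0 were higher, with a median difference of −0.64. Among all tested probe sets 16.4% were lower and 14.3% higher. Between the embryonic ages, 4 of the 11 (36.4%) were lower at 15.5 dpc, against 3.07% of all. Col8a2 (1434667_at, chromosome 4) is a chain of type VIII collagen, which builds networks in vessel walls and in Descemet's membrane of the eye. It read 372 and 425 in cortex and 556 and 472 in cerebellum, against 467 and 914 at 15.5 dpc and 1909 and 2718 at 13.5 dpc. The 13.5 dpc arrays stood above all others. Neonatal minus embryonic was −1.34 ± 0.20 (limma adjusted p = 0.00429) and 15.5 minus 13.5 dpc −1.71 ± 0.28 (limma adjusted p = 0.0261).

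The partner chain of type VIII collagen, Col8a1 (1455627_at, chromosome 16), read 344 and 432 in cortex and 660.4 and 546 in cerebellum, against 51.9 and 401 at 15.5 dpc and 1364 and 2194 at 13.5 dpc. It too was highest at 13.5 dpc, and 15.5 minus 13.5 dpc was −2.99 ± 0.50 (limma adjusted p = 0.0264). Of the 15.5 dpc arrays, 1 of 2 was above its array median. Without the other, the paternal-7 array at 51.9, the difference was −2.08 and not called (limma adjusted p = 0.064). Over both ages the neonatal difference was −0.23 ± 0.35 (limma adjusted p = 0.633).

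Col12a1, a collagen that decorates type I fibrils, was also highest at 13.5 dpc: probe set A (1434411_at, chromosome 9) read 247 and 159 in cortex and 355 and 278 in cerebellum, against 239.5 and 275 at 15.5 dpc and 1597 and 1475 at 13.5 dpc. The 15.5 dpc signals lay within the neonatal range, and only the 13.5 dpc arrays were high. The difference 15.5 minus 13.5 dpc was −2.34 ± 0.22 (limma adjusted p = 0.00903), and neonatal minus embryonic was −1.19 ± 0.15 (limma adjusted p = 0.0028). Without the 13.5 dpc arrays the neonatal difference was −0.02 (limma adjusted p = 0.948). Its probe sets B and C were never above the array median.

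Col23a1 encodes a transmembrane collagen. Its probe set A (1429209_at, chromosome 11) read 548 and 909 in cortex and 1050.3 and 970.0 in cerebellum, against 1288 and 1239 at 15.5 dpc and 2436 and 2526 at 13.5 dpc. The groups did not overlap, and the difference was −1.02 ± 0.17 (limma adjusted p = 0.00661). Probe set B differed by −0.73 ± 0.12 (limma adjusted p = 0.00687), and the dimmer C by −0.81 ± 0.27 (limma adjusted p = 0.0616), at least 1.09-fold with its dim neonatal arrays set at their medians. Probe set C passed the filter through its 13.5 dpc arrays only. Col22a1, a collagen of tissue junctions on chromosome 15, read 333 to 511 in neonatal tissue, against 561 to 689.5 in embryonic brain, without overlap (−0.64, limma adjusted p = 0.028).

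Other collagens were not called between the stages at the deposited scaling. Col25a1, a transmembrane collagen of neurons, read 735 to 942 in neonatal tissue and 373 to 859.7 in embryonic brain (0.45 ± 0.18, limma adjusted p = 0.105), and was called higher in neonatal tissue with median centring (0.62, limma adjusted p = 0.0447). Col19a1, a collagen of basement membrane zones, read 609.7 and 526 in cortex and 230.1 and 368 in cerebellum (0.83 ± 0.30, limma adjusted p = 0.564). Col6a4, a chain of the beaded type VI family, had its probe sets on different sides: 15.5 minus 13.5 dpc was 0.84 ± 0.57 for A and −0.63 ± 0.27 for B, neither past the threshold. Neonatal minus embryonic was 0.56 ± 0.19 for B (limma adjusted p = 0.065), which passed with median centring (0.74, limma adjusted p = 0.0388) and with quantile normalization.

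**Figure D2:**
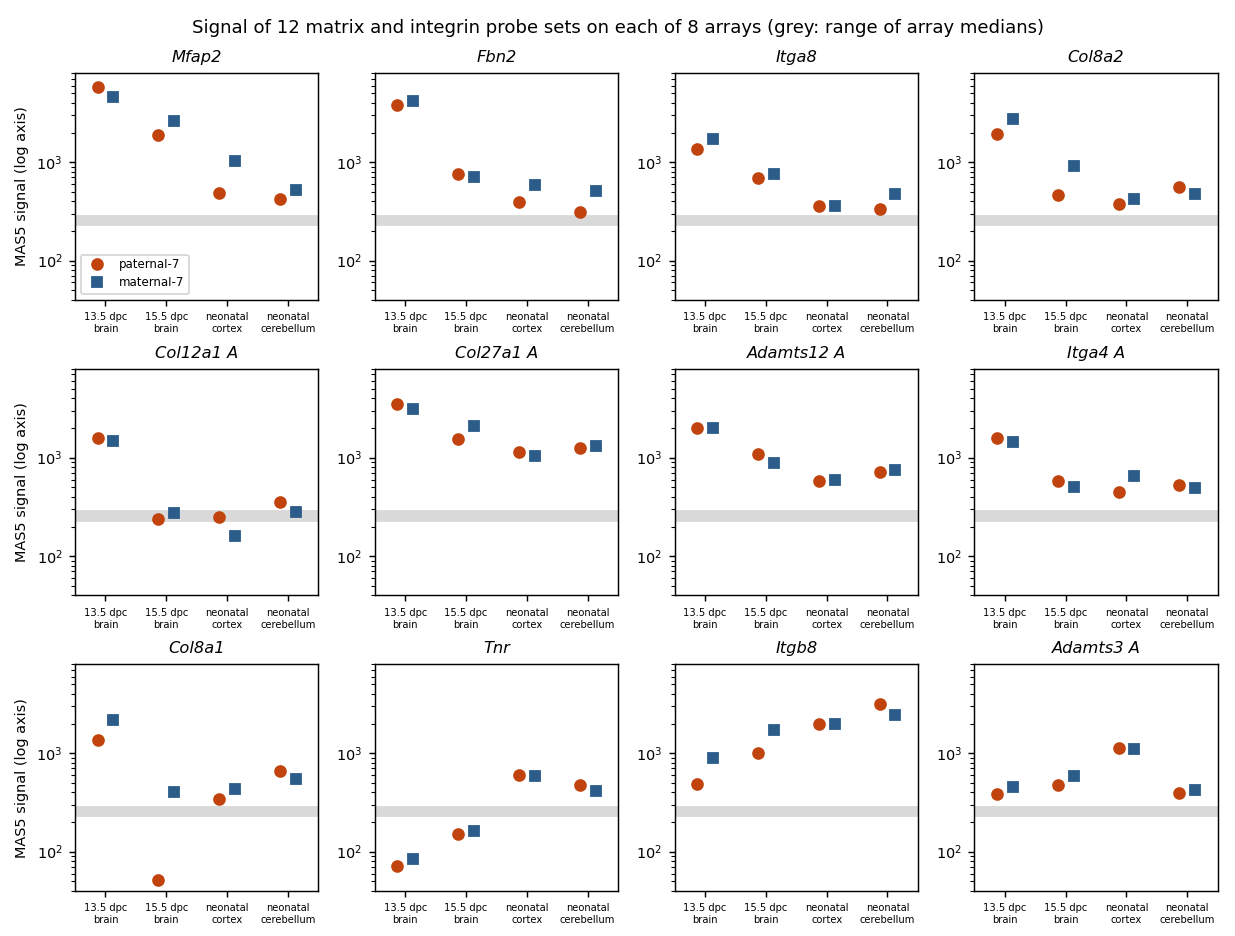
MAS5 signal (log axis) of 12 probe sets on each of 8 arrays, with 4 contexts from 13.5 dpc to neonatal, paternal-7 as circles and maternal-7 as squares, and the range of array medians in grey. Mfap2, Fbn2, Itga8, Col8a2, Col12a1 A, Col27a1 A, Adamts12 A, Itga4 A and Col8a1 are highest at 13.5 dpc, Tnr and Itgb8 are lowest there, and Adamts3 A stands out in cortex.

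Of the tenascins, Tnr was tested and was higher in neonatal tissue. Tnr (1436148_at, chromosome 1) encodes a protein of perineuronal nets and of nodes of Ranvier that binds lecticans such as brevican. It read 602 and 583 in neonatal cortex and 481 and 411 in neonatal cerebellum, against 151 and 162 at 15.5 dpc and 71.8 and 85.3 at 13.5 dpc. All 4 embryonic signals lay under their array medians and all 4 neonatal ones above, so Tnr passed the filter through the neonatal arrays alone. The difference was 1.74 ± 0.13 (limma adjusted p = 0.000721), or at least 1.9-fold when the embryonic arrays are set at their medians. It kept its call without the 13.5 dpc arrays, at 1.42 (limma adjusted p = 0.0203). Its relative Tnc was under the array median on every array, at 50.6 to 113 in neonatal tissue, 26.1 and 134 at 15.5 dpc and 14.3 and 21.2 at 13.5 dpc.

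Of the integrins, 4 of 8 tested probe sets were lower and 1 was higher in neonatal tissue (median −0.55). Among all tested probe sets 16.4% were lower and 14.3% higher. Itga8 (1454966_at, chromosome 2) encodes the alpha chain of the nephronectin receptor. It read 355 and 358 in cortex and 337 and 476 in cerebellum, against 683 and 766 at 15.5 dpc and 1363 and 1719 at 13.5 dpc. The 3 stages did not overlap. Neonatal minus embryonic was −1.35 ± 0.14 (limma adjusted p = 0.00146) and 15.5 minus 13.5 dpc −1.02 ± 0.19 (limma adjusted p = 0.0335). Without the 13.5 dpc arrays the neonatal difference was −0.84 (limma adjusted p = 0.0444).

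Itga4, the alpha chain of receptors for fibronectin and VCAM-1, had its step between the embryonic ages. Its probe set A (1436037_at, chromosome 2) read 443 and 645 in cortex and 527 and 490.2 in cerebellum, against 577 and 498 at 15.5 dpc and 1597 and 1449 at 13.5 dpc. The 15.5 dpc signals lay inside the neonatal range. Itga4 A was −1.41 ± 0.23 between 15.5 and 13.5 dpc (limma adjusted p = 0.0257), −0.74 ± 0.16 between neonatal and embryonic (limma adjusted p = 0.0162), and −0.04 between neonatal and 15.5 dpc alone (limma adjusted p = 0.921).

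Itgb2l is named for its likeness to the beta 2 chain of leukocyte integrins. Its probe set A (1433053_at, chromosome 16) read 525 and 409.6 in cortex and 505 and 482 in cerebellum, against 1053 and 852 at 15.5 dpc and 1049.9 and 838 at 13.5 dpc. The embryonic ages differed by 0.01 ± 0.18, and neonatal minus embryonic was −0.90 ± 0.13 (limma adjusted p = 0.00389). Probe set B did not share the call (−0.23 ± 0.13, limma adjusted p = 0.209). Itga1 A, of a collagen receptor, read 128 to 158 in neonatal tissue, all under the array median, and 128 to 400.0 in embryonic brain. It was lower in neonatal tissue (−0.71 ± 0.18, limma adjusted p = 0.0254), with embryonic signals at least 1.15-fold higher when the neonatal arrays are set at their medians. Its 15.5 dpc arrays were unlike each other, at 264 with paternal-7 and 128 with maternal-7.

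Itgb8 ran the other way. Its protein pairs with alpha v and, on radial glia and astrocytes, activates latent TGF-beta beside growing vessels. Itgb8 (1436223_at, chromosome 12), the brightest integrin probe set, read 1962 and 1958 in cortex and 3189 and 2441 in cerebellum, against 995 and 1741 at 15.5 dpc and 489.7 and 893 at 13.5 dpc. Every neonatal signal was above every embryonic one, with means of 2387 ± 580.5 and 1029.7 ± 522 (SD, n = 4 arrays each) and a difference of 1.27 ± 0.23 (limma adjusted p = 0.00855). Without the 13.5 dpc arrays it was 0.80 (limma adjusted p = 0.109). Itga10, of a collagen receptor of chondrocytes, read 371 to 531 in neonatal tissue and 378 to 523 in embryonic brain, with groups that overlapped (0.06 ± 0.15). Itgal, the alpha chain of the leukocyte integrin LFA-1, read 182 to 433 in neonatal tissue and 262 to 579.9 in embryonic brain (−0.39 ± 0.25, limma adjusted p = 0.263). The probe sets of Itgb3, Itgav, Itga5 and Itgae were never above the array median.

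Among the proteases and the ADAMTS-like proteins, which lack the protease domain, 6 of 16 tested probe sets were lower and 2 higher in neonatal tissue (median −0.38). These are 37.5% and 12.5%, against 16.4% and 14.3% of all tested probe sets. Adamts12 A (1439827_at, chromosome 15), of a secreted metalloprotease known from cartilage, read 578 and 593 in cortex and 713 and 755 in cerebellum, against 1089 and 893 at 15.5 dpc and 1993 and 1989.7 at 13.5 dpc. The signals fell at each step without overlap. Neonatal minus embryonic was −1.03 ± 0.13 (limma adjusted p = 0.00279) and 15.5 minus 13.5 dpc was −0.97 ± 0.19 (limma adjusted p = 0.0344).

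Adamts5 A and Adamts9 A, of proteases that cleave aggrecan and versican, were lower at 15.5 than at 13.5 dpc. Adamts5 A (1456404_at) read 458 and 565 in cortex and 541 and 578 in cerebellum, against 566 and 651 at 15.5 dpc and 1158 and 1097 at 13.5 dpc. Its differences were −0.59 (neonatal minus embryonic, limma adjusted p = 0.0179) and −0.83 (15.5 minus 13.5 dpc, limma adjusted p = 0.0487). Adamts9 A (1437785_at), the brightest protease probe set, read 1387 and 1238 in cortex and 1158 and 1831 in cerebellum, against 1055 and 1284 at 15.5 dpc and 3083 and 2450.0 at 13.5 dpc, and changed between the embryonic ages (−1.20 ± 0.27, limma adjusted p = 0.0483). Adamts9 B did not share that step (0.12 ± 0.21). Adamts20, its closest relative, read 228 to 349 in neonatal tissue, against 403 to 588 in embryonic brain (−0.60, limma adjusted p = 0.0188).

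Mmp14 (1440920_at, chromosome 14), a membrane-bound protease that activates pro-MMP2, read 301 and 362 at 15.5 dpc, against 741 and 699.8 at 13.5 dpc (−1.0 ± 0.20, limma adjusted p = 0.0403). Its neonatal signals, 323 to 401, were near those of 15.5 dpc. Adamtsl1 A was lower at 15.5 than at 13.5 dpc (404 and 424, against 797 and 804; −0.86, limma adjusted p = 0.0452) and lower in neonatal tissue (−0.51, limma adjusted p = 0.0282). Its probe set B was called lower in neonatal tissue (−0.47, limma adjusted p = 0.032), at least 1.21-fold with the dim neonatal arrays set at their medians. Probe set B exceeded the array median on the 13.5 dpc arrays only, and so passed the filter through the arrays where it was high. Adamts16 A read 1028 to 1140.5 in neonatal tissue, against 1429 to 1886 in embryonic brain (−0.56, limma adjusted p = 0.0226). Its probe set B read 503 to 582 in neonatal tissue and 387 to 765 in embryonic brain and was not called (−0.05 ± 0.13). The MT3-MMP gene Mmp16, Adamts18 A and Adamtsl2, whose protein binds fibrillin, were not called in any comparison.

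A pair of members of this role was higher in neonatal tissue. Adamtsl3 (1440668_at, chromosome 7) encodes an ADAMTS-like protein, and it read 708 to 1076 in neonatal tissue and 422 to 853 in embryonic brain (0.54 ± 0.12, limma adjusted p = 0.0193). Adamts3 A (1441693_at, chromosome 5) belongs to the procollagen N-propeptidase gene, whose product also cleaves reelin. It read 1142 and 1093 in neonatal cortex, against 393 and 427 in neonatal cerebellum, and 481 and 585 at 15.5 dpc and 384 and 457 at 13.5 dpc. Only the cortex arrays stood above the embryonic range. Its neonatal difference, 0.48 ± 0.13 (limma adjusted p = 0.0327), turned to −0.18 without the cortex arrays (limma adjusted p = 0.506).

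**Figure D3:**
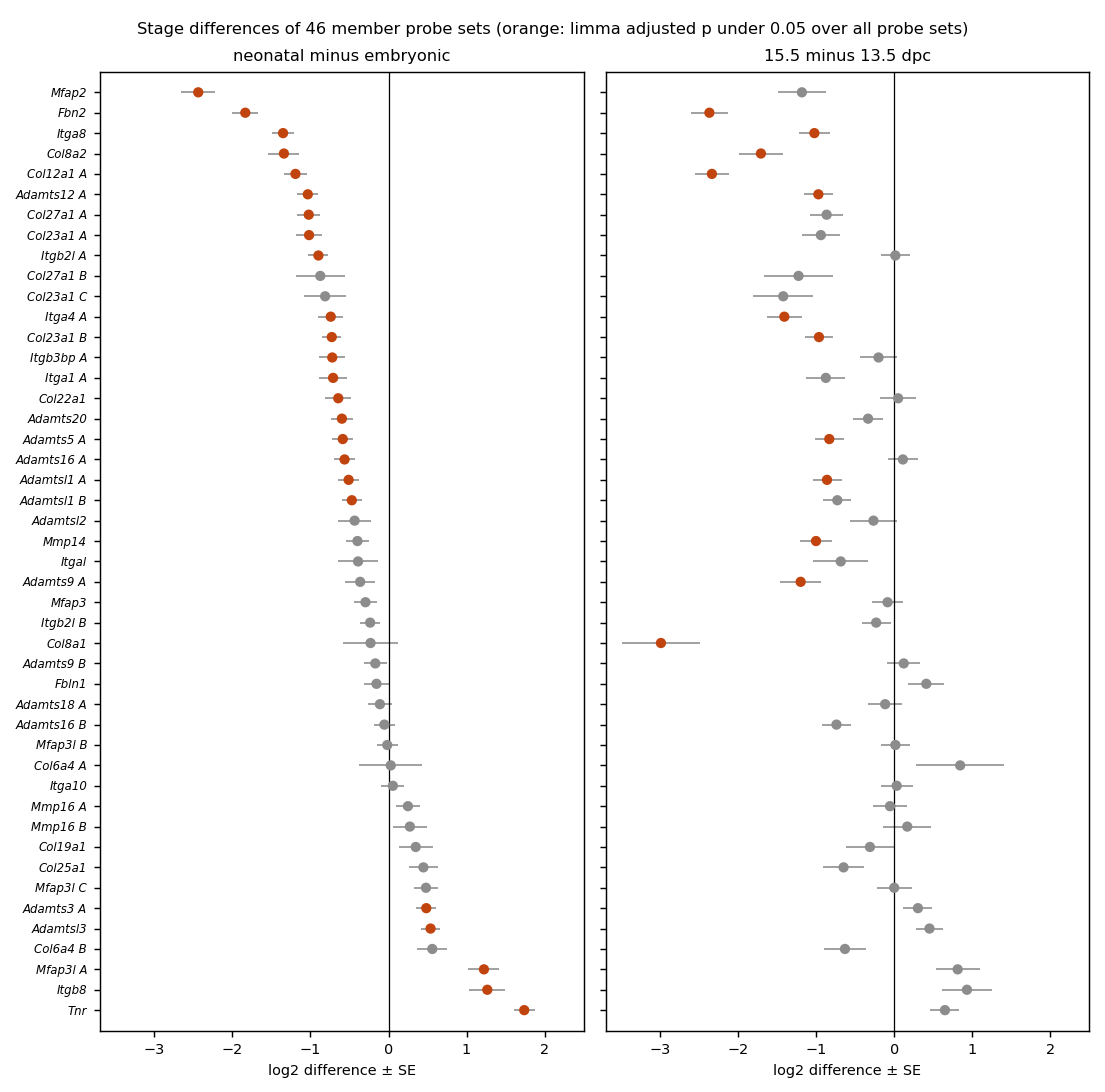
Log2 differences ± SE of the 46 tested probe sets, ordered by the neonatal minus embryonic difference (left panel), with 15.5 minus 13.5 dpc beside it (right panel); orange marks a limma adjusted p under the threshold. On the left 19 members are called below 0 and 5 above, and on the right 12 below and 0 above.

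Between the embryonic ages, 12 members (12 genes) were lower at 15.5 dpc and 0 higher, or 26.1% and 0.0%, against 3.07% lower and 3.52% higher among all tested probe sets. At an unadjusted p under 0.05 there were 25 members of 46 and 3046 of 13221 probe sets. The median difference was −0.48 among members and −0.02 over all probe sets. By role, the 12 were 5 of 16 protease and ADAMTS-like probe sets, 4 of 11 other collagens, 2 of 8 integrins and 1 of 3 elastic fibre genes. This comparison and the neonatal one share the embryonic arrays, so their calls are not independent of each other. Leaving out 1 array at a time gave 0 to 4 called members, against 0.0% to 3.95% of all probe sets, and without the paternal-7 array of 13.5 dpc 0 of all 13221 were called. Centring on the median ended the calls of Adamts5 A, Adamts9 A and Adamtsl1 A. Without each of the other arrays, Fbn2 and Col12a1 A kept their calls.

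Listed markers of tissue outside the brain were read beside these genes. Of 14 listed genes of craniofacial mesenchyme and cartilage, 4 were on the array and 3 were tested, and 2 were called lower in both stage comparisons. Msx2 was tested and called in neither: neonatal minus embryonic −0.59 (limma adjusted p = 0.0681) and 15.5 minus 13.5 dpc −0.62 (limma adjusted p = 0.263). Sox9 was never above the array median. Among all tested probe sets 16.4% were lower in neonatal tissue and 3.07% at 15.5 dpc. Prrx1, a transcription factor of that mesenchyme, read 172 to 325 in neonatal tissue, against 303 and 319 at 15.5 dpc and 2646 and 2759 at 13.5 dpc. Alx1, another, read 9.1 to 55.5 in neonatal tissue, against 80.7 and 82.5 at 15.5 dpc and 1031 and 1142 at 13.5 dpc. It passed the filter through the 13.5 dpc arrays alone. The summed signal of the list was 398 to 548, 586 to 826 and 4102 to 4506 in the same order. The 3 measured fibroblast markers of 12 (Dcn, Pdgfra and Cdh11) summed to 968 to 1451 in neonatal tissue, 890.3 to 1145 at 15.5 dpc and 1818 to 2038 at 13.5 dpc, and none was called. Of the pericyte markers, Abcc9 was called lower at 15.5 than at 13.5 dpc (−0.91, limma adjusted p = 0.0343). The one measured endothelial marker of 12, Flt1, read 369.5 to 432, 362 to 493 and 351 to 402. No listed gene of microglia or of blood was measured. The part of these markers in the stage differences of the members was not tested.

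Markers of astrocytes were higher in neonatal tissue along with Tnr and Itgb8. All 3 measured of 7 (Aqp4, Slc1a3 and Slc1a2) were called higher in neonatal tissue, against 14.3% of all tested probe sets. The list summed to 10643 to 12459 in neonatal tissue, 5543.5 to 7039.6 at 15.5 dpc and 3908 to 4826 at 13.5 dpc. The one measured progenitor marker of 8, Rfx4, was called higher too (0.81, limma adjusted p = 0.0117). It read 581 and 906 in neonatal cortex and 1410 and 1514 in neonatal cerebellum. Its embryonic signals were 615 and 1064 at 15.5 dpc and 282 and 527 at 13.5 dpc. The cortex signals of Rfx4 thus lay within or below its 15.5 dpc range. The part of these markers in the rise of Tnr and Itgb8 was not tested. The 3 measured choroid plexus markers of 6 summed to 36139 to 45552 in neonatal tissue, 50653 and 58548 at 15.5 dpc and 24815 and 37443 at 13.5 dpc, and Kcnj13 was called higher at 15.5 than at 13.5 dpc (1.03, limma adjusted p = 0.0314).

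**Figure D4:**
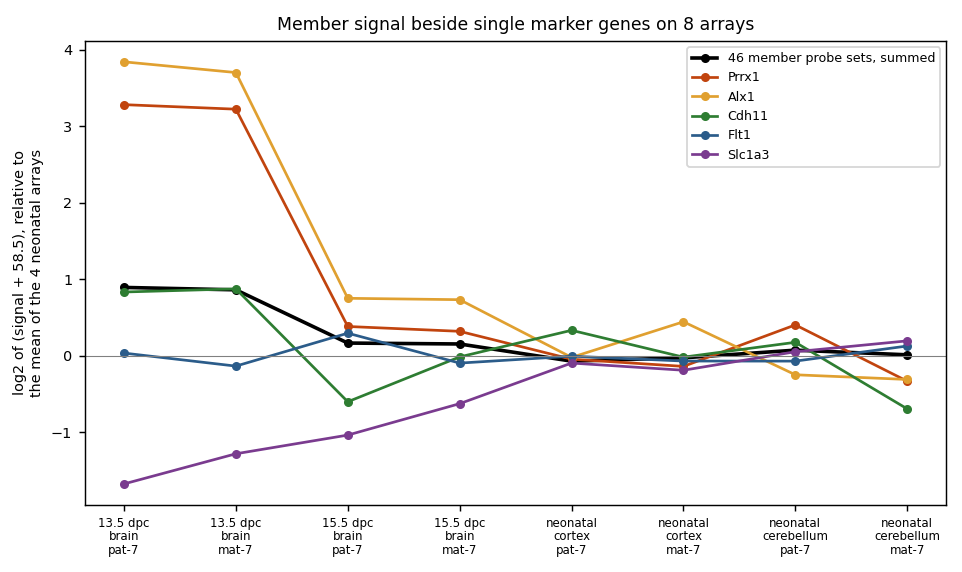
Log2 of (signal + 58.5), relative to the mean of the 4 neonatal arrays, for the summed signal of the 46 tested members (black) and for 5 marker genes, on each of 8 arrays; lines only join the arrays of one gene. The members' sum and the mesenchyme genes Prrx1 and Alx1 are highest on both 13.5 dpc arrays, the endothelial gene Flt1 stays between 351 and 493 signal units, and the astrocyte gene Slc1a3 is highest on the neonatal arrays.

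Genes that work with the members were read from 4 further lists. Over all tested probe sets, 16.4% were lower and 14.3% higher in neonatal tissue. Between 15.5 and 13.5 dpc these shares were 3.07% and 3.52%. The counts that follow come from short lists and are not read as differing from these shares. Of 12 tested proteoglycan and link protein genes, Bcan (2.13 ± 0.24, limma adjusted p = 0.00194) and Ncan (1.02 ± 0.16, limma adjusted p = 0.00541), which encode the brain lecticans brevican and neurocan, were higher in neonatal tissue, and Gpc4, of a glypican, was lower (−0.97 ± 0.14, limma adjusted p = 0.00413). The median of the 12 was −0.37, and Hapln1 and Gpc4 were lower at 15.5 than at 13.5 dpc. Hapln1 passed the filter through the 13.5 dpc arrays alone. Brevican is a partner of tenascin-R, and Bcan read 9606 to 12457 in neonatal tissue, against 2889 and 5899 at 15.5 dpc and 1284 and 1598 at 13.5 dpc. Of 4 tested partners of basement membranes and matricellular genes, Reln, Egflam and Ntn4 were lower in neonatal tissue and 0 higher (median −0.57). Of 3 tested genes of collagen processing, the prolyl hydroxylase gene P4ha3 was lower (−0.75, limma adjusted p = 0.0394). Of 9 tested genes of integrin signalling and adhesion, 3 were lower and 1 higher. Ddr2, a receptor of fibrillar collagen, was lower at 15.5 than at 13.5 dpc (−2.37, limma adjusted p = 0.0124). So was Cd44, the hyaluronan receptor (−2.0, limma adjusted p = 0.00923). Both were among the 3 called lower in neonatal tissue, but only their 13.5 dpc arrays were high. Ddr2 read 516 to 733 in neonatal tissue, against 792 and 500 at 15.5 dpc and 3106 and 3940 at 13.5 dpc. Cd44 read 608 to 802 in neonatal tissue, above its 489 and 557 at 15.5 dpc, against 2460 and 2071 at 13.5 dpc. Parvb, of a focal adhesion protein, was higher in neonatal tissue (0.65, limma adjusted p = 0.0105).

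Markers of the labelled tissues were called in part: Neurod2, Bcl11b and Slc17a7 of 5 tested cortical markers were called higher in cortex, and 1 of 4 tested cerebellar markers, Tfap2b, was called higher in cerebellum, at 363 and 339 in cortex, against 6639 and 7313 in cerebellum (−4.1, limma adjusted p = 0.00983). Zic1, Lhx9 and Calb1, the other cerebellar markers tested, were not called, and Zic1 read 3646 and 6283 in cortex, against 4437 and 4795 in cerebellum. Cortex and cerebellum of the neonate differed in 0 members, against 0.325% of all tested probe sets (43 of 13221). At an unadjusted p under 0.05 there were 4 members and 1011 probe sets. Nearest the threshold was Adamts3 A, 1.33 ± 0.18 higher in cortex (limma adjusted p = 0.0557), with cortex signals of 1142 and 1093 and cerebellum signals of 393 and 427. It passed under a stricter signal filter (limma adjusted p = 0.0106), with an intensity trend in the variance (limma adjusted p = 0.0169) and with 1 probe set a gene (limma adjusted p = 0.0324). Its dimmer probe set B was above the array median on 1 array. The other 3 were Mfap3l B (−0.63 ± 0.19), Col19a1 (0.83 ± 0.30) and Col12a1 A (−0.53 ± 0.22), with limma adjusted p of 0.431, 0.564 and 0.639.

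The genotypes differed in 0 members, against 0.00756% of tested probe sets (1 of 13221). At an unadjusted p under 0.05 there were 3 members and 1147 probe sets. The median paternal-7 minus maternal-7 difference was 0.00 among the members and 0.01 over all probe sets. In all 4 contexts 8 members had a positive difference and 1 a negative one, against 18.7% of tested probe sets with 1 sign throughout. The members lie on many chromosomes, and 2 tested ones were on chromosome 7 (Adamtsl3 and Itgal) and 4 on chromosome 15 (Adamts12 A, Adamts20, Col22a1 and Fbln1). The sources used here do not say which of them lie inside a duplicated segment.

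Adamtsl3, on chromosome 7, had the most even of these differences. With paternal-7 it read 1057 and 1076 in neonatal cortex and cerebellum and 853 and 603 at 15.5 and 13.5 dpc, against 708, 808, 593 and 422 with maternal-7. Paternal-7 was higher in 4 of 4 contexts, by 0.54, 0.39, 0.48 and 0.46. The difference was 0.47 ± 0.12 (limma unadjusted p = 0.00729, adjusted p = 0.535), so it did not pass. Mfap3l C read 378, 256, 246 and 222 with paternal-7 in the same order, against 213, 237, 119 and 134 with maternal-7 (0.53 ± 0.16, limma adjusted p = 0.535). Adamts9 B read 1188, 906, 1391 and 1122 with paternal-7, against 793, 861, 862 and 896 with maternal-7 (0.40 ± 0.15, limma adjusted p = 0.562), and no paternal-7 signal was below a maternal-7 one. Probe set A of the same gene did not share the sign (−0.11 ± 0.19).

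Fbln1, on chromosome 15, read 743, 852, 1113 and 991 with paternal-7, against 701, 744, 878 and 534 with maternal-7. Most of its difference, 0.35 ± 0.16 (limma adjusted p = 0.584), came from 13.5 dpc. Mmp16 A differed by 0.34 ± 0.16 (limma adjusted p = 0.582), and Itga8, the one member lower with paternal-7 in all contexts, by −0.23 ± 0.14 (limma adjusted p = 0.631).

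Single contexts held a few larger gaps, each between 1 array and 1 other and so without error. Among members above the median on either array, differences of at least 2-fold (on the scale of signal + 58.5) were found for 1 of 42 in cortex, against 2.91% of all probe sets compared there, and for 1 of 42 in cerebellum, against 3.15%. They were found for 3 of 40 at 15.5 dpc, against 9.28%, and for 3 of 44 at 13.5 dpc, against 7.3%. In cortex it was Col27a1 B, at 201 with paternal-7 and 566 with maternal-7. In cerebellum it was Itgal, at 433 with paternal-7 and 182 with maternal-7. At 15.5 dpc Col8a1 read 51.9 with paternal-7 and 401 with maternal-7, Itgb3bp B 388 and 22.4, and Adamts3 B 386 and 150.4. At 13.5 dpc Col6a4 A read 114 with paternal-7 and 686 with maternal-7, Fbln5 312 and 75.9, and Mfap3l A 440.3 and 189. No member so compared had a gap of that size in more than 1 context. The spread of the members' pair differences was 0.40, 0.39, 0.67 and 0.55 (SD) in cortex, cerebellum, 15.5 and 13.5 dpc, against 0.41, 0.43, 0.61 and 0.55 over all probe sets.

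The genotype difference was also compared between neonatal and embryonic contexts, and 0 members were called, against 0.0% of all probe sets. At an unadjusted p under 0.05 there were 3 members (Itgb8, Adamtsl2 and Col8a1) and 1209 probe sets, and the lowest limma adjusted p among members was 0.496. Itgb8 had differences of 0.00 in cortex and 0.38 in cerebellum, against −0.77 at 15.5 dpc and −0.80 at 13.5 dpc.

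**Figure D5:**
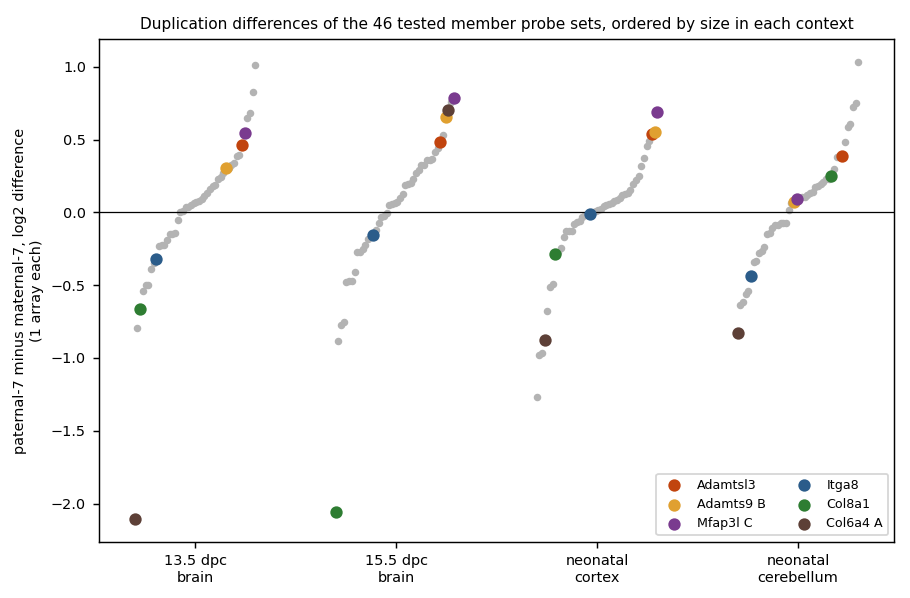
Paternal-7 minus maternal-7 log2 differences of the 46 tested members within each context, 1 array of each genotype, each column ordered from lowest to highest, with 6 probe sets in colour. Adamtsl3 lies between 0.39 and 0.54 in every context, while Col8a1 at 15.5 dpc (−2.06) and Col6a4 A at 13.5 dpc (−2.11) stand below the rest in 1 context each.

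Of the type IV collagens and laminins, which build basement membranes, the rule found only 6 probe sets, for 5 genes. They could not be tested: Col4a3, Col4a4 A and B, Lama3, Lama5 and Lamb1 were under the array median on every array. The other genes of these families were not measured. The highest signal among the 35 probe sets never above the median was 281.7, and 24 member genes had no tested probe set. A probe set under the median does not show that its gene was silent. Of the 3 genes that match the rule by name only, Mfap3, the brightest probe set of all members, was not called (2942 to 3580.0 in neonatal tissue and 3639.7 to 4465 in embryonic brain, −0.29 ± 0.14, limma adjusted p = 0.152). Mfap3l A was higher in neonatal tissue (1.22 ± 0.20, limma adjusted p = 0.00584), while its probe sets B (−0.02 ± 0.13) and C (0.48 ± 0.16) were not called. Itgb3bp A was lower (−0.72 ± 0.17, limma adjusted p = 0.0191), at least 1.3-fold with the dim neonatal arrays set at their medians. Without these 3 genes, 18 of 41 tested probe sets (43.9%) were lower and 4 (9.76%) higher, against 16.4% and 14.3% of all tested probe sets.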

How the data were processed

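Brain RNA was measured on 8 Affymetrix 430B arrays, 1 per sample. The deposited files hold linear signal intensity per probe set, which the authors computed with MAS5 per the submitters' processing notes (version not stated). These intensities already share a trimmed mean of 499.9 and were used without another scaling. Depth does not apply to arrays; their number limits the precision.

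After 64 control probe sets were set aside, 22511 remained, of which 14661 had 1 gene symbol, 245 several and 7605 none. Members, roles and lists were chosen with earlier results of these data known, and the group of name matches was set apart after values were seen. One further gene that the rule matches is not reported here. Signals were used as log2(signal + 58.5), with the arrays' median 20th percentile as pseudocount. Additive models (3 residual degrees of freedom; 2 for the difference between stages) were fitted in R 4.3.3 with limma 3.58.1, after a test on simulated data.

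Members were named by rule: up to 12 called per comparison and direction, the brightest of each role, genes whose probe sets disagreed, the 5 largest genotype differences per direction with 1 sign in 4 contexts, and the largest gaps within a context. Other called members are named beside them. "At least" folds set dim arrays at their median. Alternatives were other scalings, pseudocounts, filters and variance models, 1 probe set a gene, and leaving out arrays or contexts.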

Additional observations from a re-analysis of the deposited data

How the results depend on the processing

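The count of members called between neonatal and embryonic samples was 24 (52.2%, against 30.7% of all probe sets). It was 14 without the cortex arrays (30.4% of members, against 13.7% of all probe sets). It was 4 without the 13.5 dpc arrays (8.7% of members, against 8.35% of all probe sets). With 1 array left out at a time it was 13 to 22 (28.3% to 47.8%, against 13.8% to 26.6% of all probe sets). Without the paternal-7 array of cortex it was 13, of cerebellum 14 and of 13.5 dpc 15. Between 15.5 and 13.5 dpc the count was 12, but 5 without a pseudocount (floor 1), 2 without a filter on dim probe sets and 0 to 4 when 1 array was left out, at 0 without the paternal-7 array of 13.5 dpc. Over all probe sets these settings called 459 of 13221, 207 of 22511, 0 to 522 of 13221 and, without that array, 0. The counts 1 between cortex and cerebellum, with the filter at the 75th percentile, the intensity trend and 1 probe set a gene, are all Adamts3 A. The genotype comparison and its difference between stages called 0 members under every alternative run.

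Of the named members, 296 values between neonatal and embryonic samples kept direction and call, 41 kept the direction and lost the call, and 1 turned (Adamts3 A, −0.18 without the cortex arrays). Between 15.5 and 13.5 dpc 87 kept the call and 104 lost it in the same direction. Fewer samples make the error larger when arrays are left out, and the cause of the other changes was not tested. The whole table moved too: over all probe sets the calls between neonatal and embryonic samples were 383 lower and 721 higher without the 13.5 dpc arrays, and 1606 lower and 1937 higher with quantile normalization. The genotype comparison is paired by context, and there were no replicate numbers to use as a further block. Signals under the array median bound what can be said of the dim members.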
